A study of Mus musculus with 40 samples.

Results

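A set of 10 genes of the visceral endoderm, *Amn*, *Cubn*, *Lrp2*, *Dab2*, *Apoe*, *Rbp4*, *Ttr*, *Afp*, *Ctsl* and *Fst*, were followed by RNA-seq in mouse embryonic stem cells (mESCs) that lack Cyclin C or CDK8. They are 10 of the 55536 genes counted, a list drawn up by name with earlier results of these data known. The visceral endoderm is the outer epithelium of the early embryo and yolk sac. It takes up proteins from its surroundings by endocytosis, digests them in lysosomes and secretes carrier proteins of the kind that the liver makes later. The receptors at its surface are cubilin (*Cubn*), which is held in the membrane by amnionless (*Amn*), and megalin (*Lrp2*), a very large relative of the LDL receptor. DAB2 is an adaptor that links such receptors to clathrin. *Apoe*, *Rbp4*, *Ttr* and *Afp* encode secreted carriers of lipid, retinol, thyroid hormone and other ligands, *Ctsl* encodes the lysosomal protease cathepsin L, and *Fst* encodes follistatin, a secreted antagonist of activin.

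The mESCs were WT, in 2 biological replicates, or carried a knockout. Clones named D1, G2 and H5 had lost *Ccnc* (*Ccnc* KO), and clones named B9, H4 and C8 had lost *Cdk8* (*Cdk8* KO). All of them received either the solvent DMSO or AZD6738, which inhibits the ATR kinase (ATRi), at 900 nM for 4 h. Cyclin C, the product of *Ccnc*, is the partner that activates CDK8 in the kinase module of the Mediator complex. Each knockout clone is a line grown from an edited cell, so its DMSO and ATRi libraries share that line, and p-values here treat them as separate samples. The 20 libraries were sequenced in 2 multiplexes, the sets of libraries run together, and the 4 WT libraries were run again in the second, so both knockouts were compared with the same WT RNA. Library totals lay between 30899823 and 67274049 counts. WT replicate 2 under ATRi stood apart from replicate 1 (chi-square per degree of freedom 92.6 and 83.2 in the multiplexes, against 13.2 and 12.4 under DMSO). It was left out of all tests, as the study did. This left 3 WT libraries and 6 knockout libraries in each comparison, and levels given for WT are those of these 3 unless the library left out is named.

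*Ccnc* RNA lay between 43.6 and 45.1 CPM (counts scaled to library size) in WT and between 4.24 and 7.40 CPM in *Ccnc* KO, a log2 fold change of -2.93 (SE 0.13). *Cdk8* RNA lay between 71.2 and 78.6 CPM in WT and between 52.3 and 64.6 CPM in *Cdk8* KO (log2 fold change -0.35, SE 0.058). WT replicate 2 under ATRi, at 57.7 CPM there, lay within the *Cdk8* KO range. The knockouts are CRISPR edits that need not remove the RNA. The 10 pluripotent stem cell markers examined summed to between 5045 and 5371 CPM in WT and 4451 and 5027 CPM in *Ccnc* KO, and in the other multiplex to between 4931 and 5277 CPM in WT and 3714 and 4773 CPM in *Cdk8* KO. They were thus present in every group, and each knockout library lay below the WT libraries of its multiplex. None of the 10 passed the threshold of a 2-fold change, but 4 in *Ccnc* KO and 2 in *Cdk8* KO had an adjusted p under 0.05 (edgeR), and the median log2 fold changes were -0.19 and -0.28. The share of all genes at that p alone was not counted. In such bulk RNA fewer cells of a type cannot be told apart from less RNA per cell.

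The windows upstream of the 3 members that rose in both knockouts are shown because these genes moved together. They come from RefSeq (GRCm38.p6) and run 5′ to 3′ on the strand of the gene. Those of *Dab2* and *Amn* (249 bases each) stop at the base before the annotated start. That of *Cubn* (250 bases) stops at 13491877, short of the annotated start at 13491813 on the minus strand. None overlaps an annotated exon. Capitals mark a match to any of 5 motifs searched on both strands.
*Cubn* (chr2:13491877-13492126, minus strand): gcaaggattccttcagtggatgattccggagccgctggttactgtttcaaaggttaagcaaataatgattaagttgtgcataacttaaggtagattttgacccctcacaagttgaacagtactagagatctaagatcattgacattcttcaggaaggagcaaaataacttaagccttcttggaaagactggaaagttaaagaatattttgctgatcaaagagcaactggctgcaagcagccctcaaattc
*Dab2* (chr15:6299539-6299787, plus strand): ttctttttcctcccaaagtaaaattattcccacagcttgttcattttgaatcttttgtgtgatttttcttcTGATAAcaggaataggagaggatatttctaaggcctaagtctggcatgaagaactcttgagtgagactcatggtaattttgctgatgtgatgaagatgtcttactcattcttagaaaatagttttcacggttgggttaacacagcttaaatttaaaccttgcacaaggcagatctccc
*Amn* (chr12:111270846-111271094, plus strand): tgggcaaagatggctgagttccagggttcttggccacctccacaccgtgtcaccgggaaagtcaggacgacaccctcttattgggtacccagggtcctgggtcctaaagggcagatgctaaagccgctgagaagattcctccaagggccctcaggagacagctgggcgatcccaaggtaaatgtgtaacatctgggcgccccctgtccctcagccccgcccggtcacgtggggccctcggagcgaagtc
The motifs were AGATAA and TGATAA, which are forms of the GATA factor site, TGTTTAC (FOX), ACAAAG (SOX) and GGAATG (TEAD), and none contains another. *Dab2* held 1 match, to TGATAA, which 7.94% of the 32841 windows of 250 bases in the table also hold. *Cubn* and *Amn* held 0 matches, which says only that these letters are not in these windows. AGATAA was found in 9.99% of all windows, TGTTTAC in 3.17%, ACAAAG in 16.5% and GGAATG in 12.6%. The windows differed in base composition. *Cubn* and *Dab2* had 39.6% and 36.8% GC with 2 CpG each, while *Amn* had 61.2% GC with 11 CpG, against medians of 52.4% and 6 over all windows. *Lrp2* was the richest member, with 66.4% GC and 18 CpG.

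In *Ccnc* KO cells the cubilin receptor complex and its adaptor rose together: *Dab2* 6.92-fold, *Cubn* 6.05-fold and *Amn* 3.23-fold over WT. In *Cdk8* KO cells the same 3 genes rose 10.9-fold (*Dab2*), 11.4-fold (*Cubn*) and 3.78-fold (*Amn*), and *Lrp2* and *Ctsl* also passed the threshold at 2.17-fold and 2.08-fold. A gene was called where its adjusted p was under 0.05 over all genes tested and its fold change was above 2 or below 0.5. Of the 10 members, 8 had enough counts to be tested and 2, *Ttr* and *Afp*, did not. The tested members had at least 23 counts in each library, WT included. In the *Ccnc* KO comparison 3 of the 8 tested members were raised and 0 lowered, where 1.62% of the 18577 genes tested were raised. In the *Cdk8* KO comparison 5 of 8 were raised and 0 lowered, where 0.908% of the 18721 genes tested were raised. The median log2 fold change of the tested members was 0.65 in *Ccnc* KO and 1.09 in *Cdk8* KO, beside 0.0032 and 0.0086 over all genes.

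**Figure D1:**
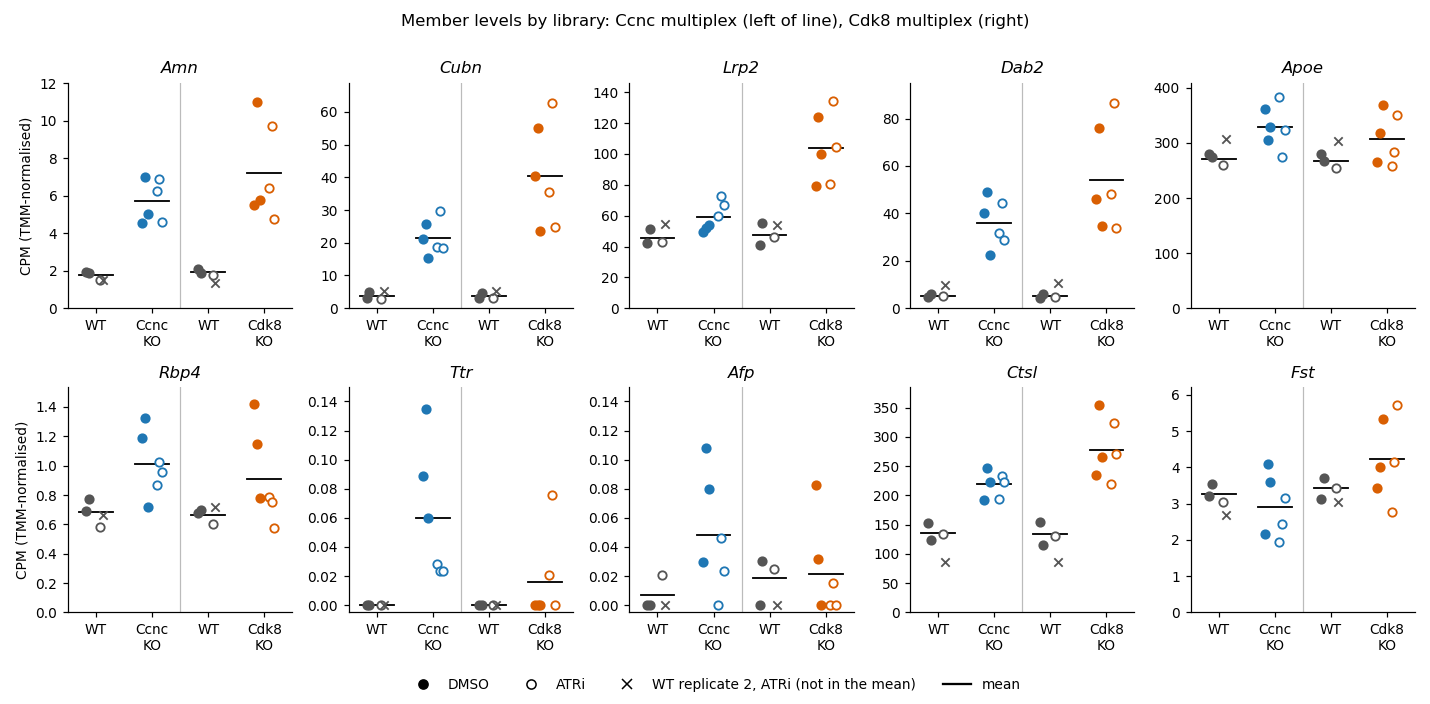
Level of each member in CPM (linear axis from 0, except *Ttr* and *Afp*, whose axis starts just below 0), by genotype and multiplex, with 1 point per library, filled for DMSO and open for ATRi, and a bar at the mean of the libraries used; crosses mark WT replicate 2 under ATRi. All knockout points of *Cubn*, *Dab2*, *Amn* and *Ctsl* lie above the WT points of their multiplex, while those of *Apoe*, *Rbp4* and *Fst* overlap WT.

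Cubilin is a large peripheral membrane protein that binds albumin, vitamin B12 with its carrier and other ligands. Its gene *Cubn* (ENSMUSG00000026726, GRCm38 chr2:13276338-13491813, minus strand) was at 2.97 and 4.88 CPM in the WT DMSO libraries of the *Ccnc* multiplex and at 2.94 CPM in WT replicate 1 under ATRi. Under DMSO the *Ccnc* KO clones D1, G2 and H5 were at 21.1, 25.8 and 15.3 CPM, and under ATRi at 18.6, 29.6 and 18.4 CPM. The lowest knockout library was thus well above the highest WT library. This was a log2 fold change of 2.60 (SE 0.23, adjusted p = 5.66e-06, edgeR quasi-likelihood test). Beside the *Cdk8* KO clones WT was at 2.99 and 4.62 CPM under DMSO and 3.11 CPM under ATRi. B9, H4 and C8 were at 40.4, 23.6 and 55.2 CPM under DMSO and at 35.5, 24.8 and 62.7 CPM under ATRi. C8 was the highest and H4 the lowest clone under both treatments, and again no library overlapped WT. The fitted log2 fold change was 3.51 (SE 0.39, adjusted p = 0.00259).

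DAB2 binds the NPXY motif in the tails of receptors of the LDL receptor family and brings them into clathrin-coated pits. In the *Ccnc* multiplex *Dab2* (ENSMUSG00000022150, GRCm38 chr15:6299788-6440712, plus strand) was at 4.78 and 6.01 CPM in WT under DMSO and at 5.05 CPM under ATRi. The *Ccnc* KO clones D1, G2 and H5 were at 40.1, 49.1 and 22.3 CPM under DMSO and at 31.8, 44.2 and 28.7 CPM under ATRi. All 6 lay far above WT, with G2 highest. The knockout raised it by 2.79 on the log2 scale (SE 0.23, adjusted p = 2.90e-06). WT in the *Cdk8* multiplex was at 4.19 and 5.93 CPM under DMSO and 4.80 CPM under ATRi, while B9, H4 and C8 were at 45.9, 34.6 and 76.2 CPM under DMSO and at 48.3, 33.7 and 86.5 CPM under ATRi. The clones stood in the order seen for *Cubn*, C8 above B9 above H4, and none overlapped WT. The rise on the log2 scale was 3.44 (SE 0.38, adjusted p = 0.00252).

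Amnionless carries cubilin to the cell surface and anchors it there. *Amn* (ENSMUSG00000021278, GRCm38 chr12:111271095-111276426, plus strand) was at 1.92 and 1.90 CPM in WT under DMSO and at 1.52 CPM under ATRi in the *Ccnc* multiplex. The *Ccnc* KO clones D1, G2 and H5 were at 4.57, 6.997 and 5.02 CPM under DMSO and at 6.27, 6.92 and 4.61 CPM under ATRi, all above the WT libraries. The rise was 1.69 on the log2 scale (SE 0.18, adjusted p = 4.21e-05), smaller than that of *Cubn* in each of the 3 clones. WT in the *Cdk8* multiplex was at 2.08 and 1.88 CPM under DMSO and 1.78 CPM under ATRi. B9, H4 and C8 were at 5.52, 5.76 and 10.98 CPM under DMSO and at 6.41, 4.76 and 9.72 CPM under ATRi. Here B9 and H4 were alike and C8 stood above both. *Amn* rose by 1.92 on the log2 scale (SE 0.30, adjusted p = 0.00859).

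*Lrp2* (ENSMUSG00000027070, GRCm38 chr2:69424340-69586065, minus strand), the gene of megalin, had the highest level per kilobase of exon among the receptor genes in WT, and was at 42.5 and 51.3 CPM under DMSO and 43.0 CPM under ATRi in the *Ccnc* multiplex. The *Ccnc* KO clones D1, G2 and H5 were at 49.7, 52.0 and 53.8 CPM under DMSO and at 59.6, 72.9 and 66.6 CPM under ATRi. The DMSO libraries overlapped WT and the ATRi libraries did not. The log2 fold change was 0.33 (SE 0.097, adjusted p = 0.0374), past the threshold on p but only 1.26-fold, so it was not called. In the *Cdk8* multiplex WT was at 40.7 and 55.5 CPM under DMSO and 46.5 CPM under ATRi, against 79.5, 100.2 and 123.7 CPM in B9, H4 and C8 under DMSO and 80.4, 104.7 and 134.6 CPM under ATRi. All 6 knockout libraries were above WT, with B9 lowest and C8 highest. *Lrp2* rose by 1.12 on the log2 scale (SE 0.19, adjusted p = 0.0120).

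Cathepsin L degrades endocytosed protein in lysosomes. Its gene *Ctsl* (ENSMUSG00000021477, GRCm38 chr13:64359337-64370890, minus strand) shares 395 of its 6489 exonic bases with Gm49230 on the same strand, where reads could be split or lost. In the *Ccnc* multiplex it was at 152.4 and 123.6 CPM in WT under DMSO and at 134.1 CPM under ATRi. The *Ccnc* KO clones D1, G2 and H5 were at 192.4, 246.3 and 222.5 CPM under DMSO and at 194.7, 234.0 and 222.7 CPM under ATRi. Every knockout library was above every WT library, but the change was 1.61-fold (log2 fold change 0.69, SE 0.088, adjusted p = 0.000180) and stayed under the fold required. The WT libraries of the *Cdk8* multiplex were at 155.2 and 116.0 CPM under DMSO and 131.5 CPM under ATRi, and B9, H4 and C8 were at 234.5, 266.2 and 353.9 CPM under DMSO and at 220.4, 270.3 and 324.7 CPM under ATRi. The groups did not overlap, and the log2 fold change of 1.06 (SE 0.16, adjusted p = 0.00755) lay just past the fold threshold.

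Counting the members whose knockout libraries all lay above the WT libraries gave 4 of the 8 tested in *Ccnc* KO (*Amn*, *Cubn*, *Dab2* and *Ctsl*), where 7.53% of all genes tested did so. In *Cdk8* KO it gave 5 (the same 4 and *Lrp2*), where 6.59% did so. The 3 calls in *Ccnc* KO held in each of the 12 alternatives tried. In *Cdk8* KO 3 members were called without clone C8, as *Lrp2* (log2 fold change 0.93) and *Ctsl* (0.88) fell under the fold threshold, 3 without WT replicate 2, and 0 without WT replicate 1 or with DMSO libraries alone, where 1 or 2 WT libraries remained. In these last settings the log2 fold changes were 3.09 and 3.39 for *Cubn*, 3.12 and 3.37 for *Dab2* and 1.96 and 1.89 for *Amn*, with adjusted p between 0.0541 and 0.419.

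**Figure D2:**
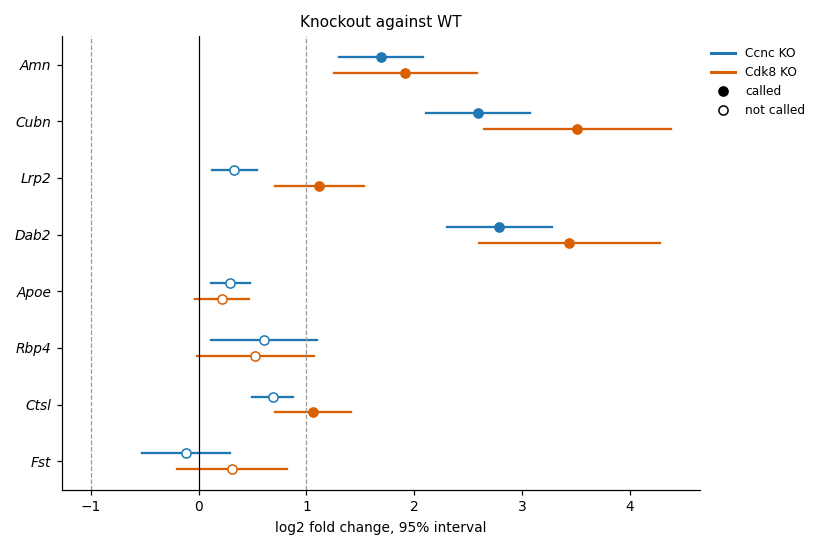
Log2 fold change of knockout against WT for the 8 members tested, with 95% intervals (blue, *Ccnc* KO; orange, *Cdk8* KO); filled points were called and dashed lines mark a 2-fold change. *Cubn*, *Dab2* and *Amn* lie beyond the line in both knockouts, and *Lrp2* and *Ctsl* in *Cdk8* KO alone.

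Of the secreted carriers, *Apoe* had the highest level per kilobase of exon, and it was not called in either knockout. Apolipoprotein E carries lipid between cells and is a ligand of megalin and the LDL receptor. *Apoe* (ENSMUSG00000002985, GRCm38 chr7:19696109-19699188, minus strand) lay at 271.3 ± 10.1 CPM (SD, n = 3) in WT and 329.7 ± 38.6 CPM (SD, n = 6) in *Ccnc* KO. The groups overlapped, since G2 under ATRi was at 275.3 CPM and WT replicate 1 under DMSO at 280.1 CPM. The log2 fold change was 0.29 (SE 0.085, adjusted p = 0.0365), not past the fold threshold. Means in the *Cdk8* multiplex were 266.9 ± 12.2 CPM (SD, n = 3) in WT and 307.2 ± 46.1 CPM (SD, n = 6) in the knockout. B9 was within the WT range under both treatments, at 264.9 and 257.3 CPM. The log2 fold change was 0.22 (95% interval -0.032 to 0.47, adjusted p = 0.298).

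*Rbp4* (ENSMUSG00000024990, GRCm38 chr19:38116629-38125281, minus strand), which encodes the plasma carrier of retinol, was weakly expressed, at 23 to 69 counts per library. It lay between 0.584 and 0.770 CPM in WT and between 0.720 and 1.32 CPM in *Ccnc* KO (log2 fold change 0.61, 95% interval 0.11 to 1.10, adjusted p = 0.106). In *Cdk8* KO it lay between 0.573 and 1.42 CPM, around the WT range of 0.603 to 0.699 CPM (log2 fold change 0.53, 95% interval -0.016 to 1.07, adjusted p = 0.248). The groups overlapped in both multiplexes, and neither difference passed after adjustment over all genes, though the interval in *Ccnc* KO leaves out 0 (unadjusted p = 0.0198).

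*Ttr* and *Afp*, transthyretin and alpha-fetoprotein, are among the most abundant secreted products of the visceral endoderm, and both had few or no counts here. *Ttr* (ENSMUSG00000061808, on chromosome 18) had 0 counts in all WT libraries of both multiplexes. A count of 0 allows up to 3 counts, which is 0.0453 to 0.0955 CPM in these libraries. In *Ccnc* KO it had 3, 5 and 3 counts in D1, G2 and H5 under DMSO and 1 count in each under ATRi. In *Cdk8* KO it had 0 counts in 4 libraries, 1 count in B9 and 5 counts in C8, both under ATRi. *Afp* (ENSMUSG00000054932, GRCm38 chr5:90490737-90508907, plus strand) had at most 1 count in any WT library. It reached 4 counts, in G2 and H5 under DMSO and in B9 under DMSO, and was at 0 to 2 counts elsewhere. Neither gene passed the filter on low counts, and neither was tested.

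*Fst* (ENSMUSG00000021765, GRCm38 chr13:114452290-114458951, minus strand) was the member without a common direction. It was at 3.27 ± 0.254 CPM (SD, n = 3) in WT and 2.90 ± 0.858 CPM (SD, n = 6) in *Ccnc* KO, where D1 was low (2.17 and 1.94 CPM under DMSO and ATRi) and G2 and H5 lay on both sides of WT. The log2 fold change was -0.12 (95% interval -0.53 to 0.29, adjusted p = 0.744). In *Cdk8* KO it was at 4.24 ± 1.13 CPM (SD, n = 6) against 3.42 ± 0.297 CPM (SD, n = 3) in WT. H4 was highest, at 5.35 and 5.73 CPM, and B9 under ATRi lowest, at 2.76 CPM. The log2 fold change was 0.31 (95% interval -0.20 to 0.82, adjusted p = 0.474).

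Levels between genes were compared per kilobase of exon (CPM per kb). In WT of the *Ccnc* multiplex the order was *Apoe* (mean 127 CPM per kb), *Ctsl* (21.1), *Lrp2* (2.73), *Amn* (0.966), *Dab2* (0.719), *Fst* (0.712), *Rbp4* (0.507) and *Cubn* (0.241). *Dab2* and *Fst* did not differ beyond their spread, and the other neighbours did not overlap. Both knockouts had another order below *Ctsl*. In *Cdk8* KO *Dab2* came next (7.38 CPM per kb), then *Lrp2* (6.22), *Amn* (3.90), *Cubn* (2.70), *Fst* (0.924) and *Rbp4* (0.678). From *Dab2* to *Cubn* the ranges of these neighbours overlapped across libraries. Within each library *Lrp2* lay above *Amn*, *Amn* above *Cubn* and *Cubn* above *Fst*. *Dab2* lay above *Lrp2* in B9 and C8 and below it in H4. In *Ccnc* KO the order was *Dab2* (4.91), *Lrp2* (3.54), *Amn* (3.11), *Cubn* (1.44), *Rbp4* (0.754) and *Fst* (0.632), with *Cubn* the one that moved from last place.

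The clones of each knockout differed among themselves. For *Cubn* the log2 change against WT, averaged over DMSO and ATRi, was 2.49 in D1, 2.97 in G2, 2.25 in H5, 3.42 in B9, 2.77 in H4 and 4.05 in C8. For *Dab2* it was 2.75, 3.14, 2.26, 3.25, 2.78 and 4.03 in the same order. These profiles lay close to each other, with a root mean square difference of 0.147 on the log2 scale over the 6 clones. That of *Amn* (1.57, 1.95, 1.42, 1.61, 1.43 and 2.40) had the same clone, C8, at its top but lay 1.31 from *Cubn* and 1.33 from *Dab2*. Among the 18122 other genes tested in both multiplexes, *Klb* was among the 2 closest to *Cubn* (0.320) and *Nostrin* among the 2 closest to *Dab2* (0.316). The closest to *Amn* were *Pla2g12b* (0.149) and *Serpinb6c* (0.160). The clones of a multiplex share their WT libraries, so this likeness is a description.

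**Figure D3:**
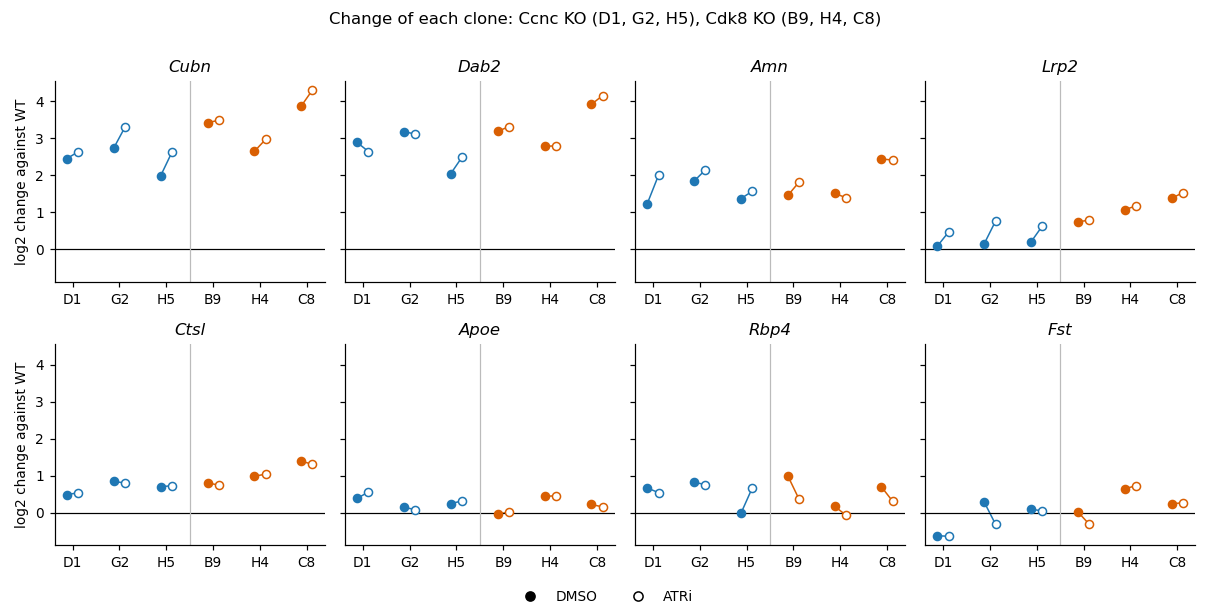
Log2 change in CPM of each knockout clone against the WT libraries under the same treatment, with filled points for DMSO and open points for ATRi (WT replicate 1 alone for ATRi); blue, *Ccnc* KO; orange, *Cdk8* KO. C8 is the highest clone for *Cubn*, *Dab2*, *Amn*, *Lrp2* and *Ctsl*, and *Lrp2* lies higher under ATRi than under DMSO in each *Ccnc* KO clone.

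Whether the knockouts differed from each other was tested in 1 model with a term for the multiplex, carried by the WT libraries run in both. 0 of the 8 members passed, where 0.00524% of 19093 genes did (1 gene, *Ccnc* itself) and 543 had an unadjusted p under 0.05. *Lrp2* was 1.69-fold higher in *Cdk8* KO (log2 difference 0.76, 95% interval 0.31 to 1.203, unadjusted p = 0.00224, adjusted p = 0.999, edgeR), and all 6 *Cdk8* KO libraries lay above all 6 *Ccnc* KO libraries in CPM, which were normalised within each multiplex. *Cubn* differed by 0.92 (95% interval -0.0039 to 1.84) and *Dab2* by 0.68 (-0.22 to 1.58). For *Amn* the difference was 0.21 (-0.52 to 0.94). For how many of all genes the *Cdk8* KO libraries all lay above those of *Ccnc* KO was not counted. With the knockout libraries alone and no run term, *Lrp2* was called (0.82, adjusted p = 0.0189, edgeR), where 43 genes were called in all. In that setting the knockouts cannot be told apart from the multiplexes. The same WT library differed between multiplexes by at most 0.22 on the log2 scale for any tested member.

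For ATRi at 4 h no change of a member passed when tested beside genotype, which does not show that levels stayed the same. WT replicate 2, whose ATRi library was left out, differed between treatments in both multiplexes. Under ATRi its *Dab2* was 0.73 and 0.83 higher on the log2 scale, and its *Ctsl* 0.51 and 0.42 lower. The ATRi effect, tested beside genotype, passed for 0 of 8 members in each multiplex, where 1.11% of the genes of the *Ccnc* multiplex and 0.0855% of those of the *Cdk8* multiplex were called by edgeR. *Cubn* changed by -0.011 (95% interval -0.41 to 0.39) and -0.023 (-0.71 to 0.66) on the log2 scale, and *Dab2* by -0.088 (-0.49 to 0.31) and 0.069 (-0.60 to 0.73). 1 member in each multiplex had an unadjusted p under 0.05. In the *Ccnc* multiplex it was *Lrp2* (0.21, SE 0.091, unadjusted p = 0.0338, adjusted p = 0.264), which was 0.26, 0.49 and 0.31 higher under ATRi in D1, G2 and H5 and 0.016 higher in WT replicate 1. The repeat run of that WT pair in the *Cdk8* multiplex gave 0.19. In the *Cdk8* multiplex it was *Rbp4* (-0.53, SE 0.22, unadjusted p = 0.0393, adjusted p = 0.407), which fell by 0.81, 0.42 and 0.57 in B9, H4 and C8 at these low counts. Pairing the libraries of each line, as a replicate block, raised the number of genes called in the *Ccnc* multiplex, which was 206, to 451, and that in the *Cdk8* multiplex, which was 16, to 2107. Among the members it added 1 call, *Apoe* in the *Cdk8* multiplex (-0.10, adjusted p = 0.0406).

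**Figure D4:**
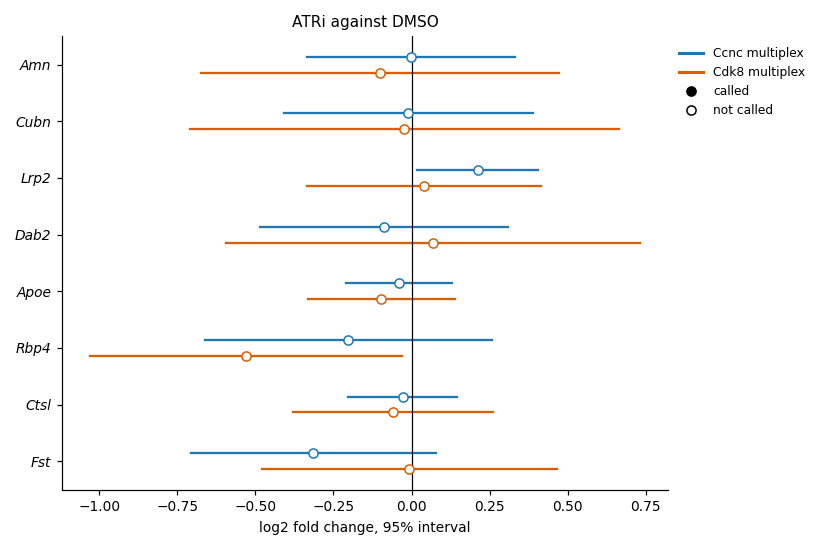
Log2 fold change of ATRi against DMSO, tested beside genotype, for the 8 members tested, with 95% intervals (blue, *Ccnc* multiplex; orange, *Cdk8* multiplex); open points were not called. No member was called, and the interval of *Lrp2* in the *Ccnc* multiplex and that of *Rbp4* in the *Cdk8* multiplex leave out 0.

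The interaction of genotype and ATRi asks whether a knockout responded to the inhibitor unlike WT. It passed for 0 of 8 members and for 0 genes in all (0% of those tested) in both multiplexes by edgeR, where 395 and 255 genes had an unadjusted p under 0.05. DESeq2 also called 0 members. Of the 8 members it was largest for *Cubn* in the *Ccnc* multiplex, at 0.49 (95% interval -0.46 to 1.45). That of *Lrp2* there was 0.47 (0.12 to 0.81, unadjusted p = 0.0120, adjusted p = 1). It rests on 1 WT library under ATRi.

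Around the members, 6 lists of genes of the same pathways were examined, whose counts stand beside 1.62% and 0.908% of all genes tested that were raised in *Ccnc* KO and *Cdk8* KO. Of 20 endocytic partners, such as clathrin, the AP2 adaptor and Rab GTPases, 20 were tested and 0 were called in *Ccnc* KO (median log2 fold change 0.048). Whatever the fold, 4 of the 20 had an adjusted p under 0.05 in each knockout, and the shares above do not apply to that count. In *Cdk8* KO 1 was raised (median 0.041), *Clcn5*, which encodes an endosomal chloride transporter of absorptive epithelia. *Clcn5* lay between 6.02 and 7.17 CPM in WT and between 10.1 and 24.9 CPM in *Cdk8* KO (log2 fold change 1.34, SE 0.32, adjusted p = 0.0468). In *Ccnc* KO its log2 fold change was 0.65 (adjusted p = 0.00127), under the fold threshold. Of the 11 other LDL receptor family genes 0 were called in either knockout, with medians of 0.049 and 0.12. *Lrp2* thus stood at 2.17-fold in *Cdk8* KO beside relatives that did not pass. Of these 11 relatives, 6 in *Ccnc* KO and 10 in *Cdk8* KO had a positive log2 fold change. Whatever the fold, 1 and 0 of them had an adjusted p under 0.05.

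Other lysosomal proteases and inhibitors gave 2 raised and 0 lowered of 15 tested in *Ccnc* KO and 2 of 14 in *Cdk8* KO, the same genes both times. An adjusted p under 0.05, whatever the fold, was found for 8 of the 15 and 6 of the 14. The shares of 1.62% and 0.908% also require the fold, so they do not apply to these counts. The share of all genes at that adjusted p alone was not counted. An unadjusted p under 0.05 was found for 4957 of 18577 genes in *Ccnc* KO and 3995 of 18721 in *Cdk8* KO. *Ctsh*, a lysosomal aminopeptidase, rose with a log2 fold change of 2.14 (SE 0.28, adjusted p = 0.000228) in *Ccnc* KO and 2.81 (SE 0.49, adjusted p = 0.0147) in *Cdk8* KO. *Ctsc*, which activates serine proteases, rose by 1.497 (SE 0.13, adjusted p = 5.78e-06) and 1.73 (SE 0.18, adjusted p = 0.00252). In the *Ccnc* multiplex *Ctsh* lay between 0.334 and 0.388 CPM in WT and between 1.06 and 2.27 CPM in the knockout. *Ctsc* lay between 2.56 and 3.49 CPM in WT and between 7.18 and 9.56 CPM in the knockout. The medians of the list were 0.22 and 0.25.

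Among genes of retinol handling 2 of 15 tested were raised in *Ccnc* KO and the same 2 of 16 in *Cdk8* KO, with 0 lowered. Whatever the fold, 7 and 4 of the list had an adjusted p under 0.05, again without the share of all genes at that p alone. *Stra6*, the cell surface receptor for retinol bound to RBP4, rose with log2 fold changes of 2.31 (SE 0.51, adjusted p = 0.00846) and 1.95 (SE 0.31, adjusted p = 0.00887). It remained low, at 0.356 to 0.557 CPM in *Ccnc* KO and 0.391 to 0.706 CPM in *Cdk8* KO. In WT *Stra6* was near the floor, at 0 to 0.128 and 0.0912 to 0.165 CPM in the 2 multiplexes. *Cyp26a1*, which degrades retinoic acid, rose by 2.74 (SE 0.36, adjusted p = 0.000199) and 2.76 (SE 0.46, adjusted p = 0.0123). Positive log2 fold changes were found for 10 of the 15 and 11 of the 16. The list sum was lower, at 704 to 716 CPM in WT and 580 to 672 CPM in *Ccnc* KO. In the *Cdk8* multiplex it was 682 to 700 CPM in WT and 484 to 608 CPM in the knockout. *Rarg*, the most abundant of the list, fell from 407 to 412 CPM in WT to 315 to 366 CPM in *Ccnc* KO.

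Of 20 further secreted proteins of the yolk sac, 9 were tested and 0 were called in either knockout (medians 0.21 and 0.44). Log2 fold changes were positive for 6 of the 9 in *Ccnc* KO and 7 of the 9 in *Cdk8* KO. Whatever the fold, 2 and 1 of the 9 had an adjusted p under 0.05, without the share of all genes at that p alone. *Alb*, *Apoa4*, *Apoc2*, *Ambp*, *Hpx*, *Fga* and *Serpind1* had at most 3 counts in every library used, as *Ttr* did in WT. The activin and follistatin pathway gave 0 calls of 13 and of 14 tested, with medians of -0.048 and -0.033. In each knockout 1 gene of this list had an adjusted p under 0.05, whatever the fold.

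**Figure D5:**
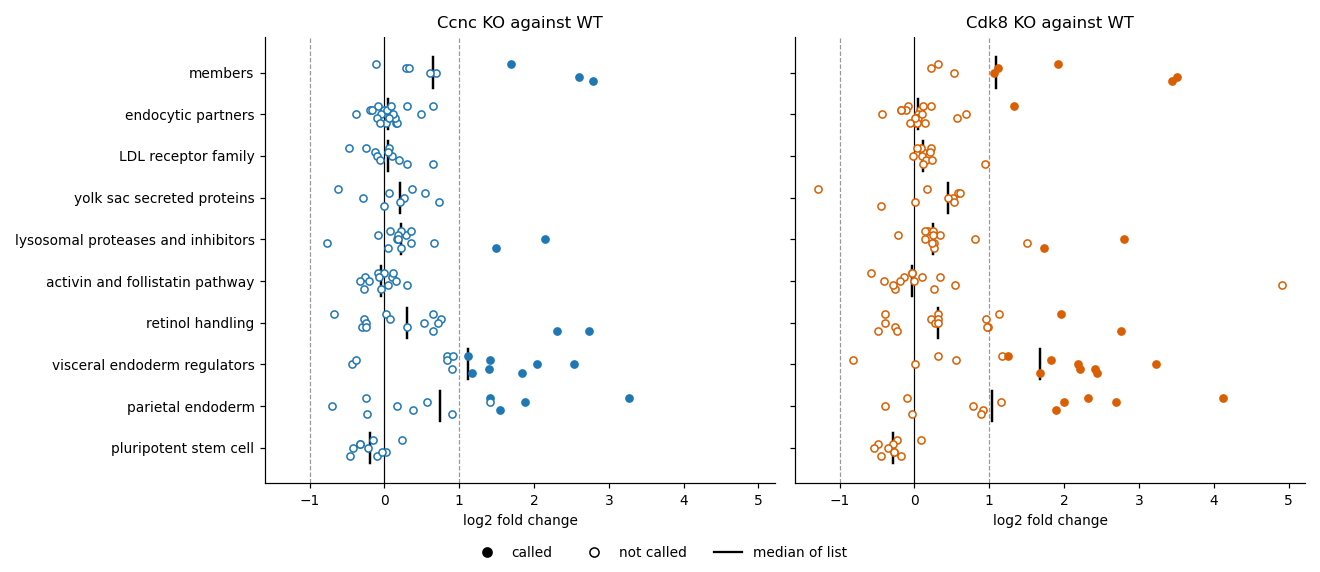
Log2 fold change of knockout against WT for each tested gene (1 point per gene) of the members, the 6 pathway lists and 3 marker lists, filled where called, with a black bar at the median of the list and dashed lines at a 2-fold change. Endocytic partners and LDL receptor relatives cluster near 0, while visceral endoderm regulators have medians of 1.12 and 1.68; the far point among activin pathway genes in *Cdk8* KO is *Inhba*, which had 0 counts in WT and whose fitted value is no measure of size.

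Of 13 transcription factors and signals of the visceral endoderm tested, 7 were raised in *Ccnc* KO and 8 in *Cdk8* KO, with 0 lowered (medians 1.12 and 1.68), where 1.62% and 0.908% of all genes were raised. The others were not called, among them *Hhex* at -0.38 and -0.82 and *Foxa1* at -0.43 and 0.0011 on the log2 scale. The genes named here were chosen after their values were seen. The SOX factor gene *Sox7* rose by 2.04 and 2.18 on the log2 scale (adjusted p = 1.62e-05 and 0.0056), and the GATA factor gene *Gata4* by 1.17 and 1.68 (adjusted p = 0.000328 and 0.00497). The list summed to between 12.1 and 17.9 CPM in WT, 30.8 and 40.6 CPM in *Ccnc* KO and 31.5 and 56.5 CPM in *Cdk8* KO, where C8 was highest and H4 lowest, as for *Cubn* and *Dab2*. *Cer1*, a marker of the anterior visceral endoderm, had at most 3 counts in every library used.

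Markers of other cells also differed. Of 12 parietal endoderm markers 4 were raised in *Ccnc* KO and 5 in *Cdk8* KO, with 0 lowered, where 1.62% and 0.908% of all genes were raised. In each knockout 9 of the 12 had a positive log2 fold change, with medians of 0.74 and 1.04. *Prdm1* went the other way, from 3.29 to 4.21 CPM in WT to 1.73 to 2.88 CPM in *Ccnc* KO. The list summed to between 807 and 895 CPM in WT, 1016 and 1292 CPM in *Ccnc* KO and 1308 and 1677 CPM in *Cdk8* KO. The 8 trophectoderm markers summed to between 52.6 and 67.0 CPM in WT, 67.8 and 102 CPM in *Ccnc* KO and 56.6 and 95.8 CPM in B9 and C8, but to 301.5 and 317.2 CPM in H4, the clone of *Cdk8* KO that was lowest for *Cubn* and *Dab2* and highest for *Fst*. WT replicate 2 under ATRi was at 84.2 and 85.7 CPM for this list, within the range of *Ccnc* KO. Gene by gene, 4 of 8 trophectoderm markers tested were raised in *Ccnc* KO and 1 of 7 in *Cdk8* KO, with 0 lowered. Their median log2 fold changes, 1.17 and 1.83, were above those of the visceral endoderm regulators. In WT the sum rests largely on *Tfap2c*, at 35.8 to 49.6 CPM there and 29.9 to 47.5 CPM in *Ccnc* KO. The keratin gene *Krt8* lay between 7.21 and 8.19 CPM in WT and between 14.7 and 31.4 CPM in *Ccnc* KO. *Krt18* lay between 5.14 and 5.47 CPM in WT and between 12.7 and 27.1 CPM in *Ccnc* KO. In *Cdk8* KO *Krt8* reached 139.8 CPM and *Krt18* 105.6 CPM, where *Tfap2c* reached 55.6 CPM. Positive log2 fold changes were found for 6 of the 8 and 5 of the 7 markers tested. The 8 fibroblast markers summed to at most 7.24 CPM in WT and 25.7 CPM in *Cdk8* KO, again in H4, and the 7 definitive endoderm and mesendoderm markers to at most 8.18 and 14.3 CPM. For these lists the WT library left out reached 7.35 and 9.56 CPM. The marker lists share genes. *Sox17*, *Foxa2* and *Eomes* of the definitive endoderm list are also among the visceral endoderm regulators, and *Eomes* among the trophectoderm markers. The other genes of that list, *T*, *Mixl1*, *Gsc* and *Cxcr4*, overlapped WT in both knockouts. The part of these other cells in the members' changes was not tested.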

How the data were processed

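Poly(A) RNA libraries were sequenced as single-end reads. The authors trimmed reads with Trimmomatic 0.38, used HISAT2 2.1.0 to align them to GRCm38.p6, and featureCounts 2.0.1 for stranded counting without marked duplicates. The deposited counts are per gene and lane, without normalization. Tables of rlog values were not used here. A read shared by similar or overlapping genes cannot be restored from the table.

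For each library its 2 lanes were added. Genes were identified by Ensembl number, and positions and exon lengths taken from GENCODE M21 (GRCm38). Counts were tested within each multiplex with edgeR 4.0.16 (R 4.3.3; TMM, filterByExpr, quasi-likelihood test with Benjamini-Hochberg adjustment over all genes): genotype beside treatment, ATRi beside genotype, and their interaction. The difference between knockouts used both multiplexes, with the WT libraries, which are not independent there, entered from each. SE was taken as the log2 fold change over the root of F, and intervals from it are approximate. Levels are TMM-normalised CPM, with a prior count of 2 on the log2 scale. Alternatives used DESeq2 1.42.0, limma 3.58.1, other filters and size factors, all WT libraries, DMSO libraries alone, a replicate block, and leaving out each clone or WT replicate; those leaving out a WT replicate from the ATRi, interaction and difference tests were chosen after seeing the data. The tests were tested on simulated data.

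The members and lists were chosen with earlier results of these data known. Named besides the members are up to 4 called genes of each pathway list, ranked by mean log2 fold change, and, for members called in both knockouts, the 2 genes with the closest profile over the clones. A gene that this rule names is not reported here. Genes of the marker lists, and *Inhba* and *Rarg*, were chosen after their values were seen. Libraries of the same clone are paired, as they share a cell line. Across 13508 genes the correlation of a clone's DMSO and ATRi deviations from their group means was 0.28, 0.081 and 0.32 in D1, G2 and H5 and 0.81, 0.86 and 0.44 in B9, H4 and C8. Floors for counts of 0 cover counting error only, while intervals of fold changes include the spread between libraries. WT replicates are labelled biological replicates, and nothing further on their origin is given.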

Additional observations from a re-analysis of the deposited data

Results flagged for a closer look

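WT replicate 2 under ATRi, the library left out of the tests, had more *Cubn*, *Dab2* and *Apoe* RNA than any other WT library, and did so in both multiplexes, which are repeat runs of the same library. *Cubn* was at 5.333 CPM in the *Ccnc* multiplex and 5.345 CPM in the *Cdk8* multiplex, where the other WT libraries reached 4.88 and 4.62 CPM. *Dab2* was at 9.972 and 10.57 CPM, against at most 6.01 and 5.93 CPM, and below every knockout library. *Apoe* was at 306.9 and 304.4 CPM, against at most 280.1 and 279.3 CPM. Other members went the other way. *Ctsl*, at 86.6 CPM in both multiplexes, and *Fst*, at 2.69 and 3.03 CPM, were lower than in any other WT library. The share of all genes that were highest or lowest in this library was not counted. With this library included, 3 members were called in *Ccnc* KO and 5 in *Cdk8* KO, as without it.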

How the results depend on the processing

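In *Ccnc* KO 3 members were called in each of the 12 alternatives. In *Cdk8* KO the count of 5 became 0 with DMSO libraries alone and ranged from 0 to 5 on leaving out a clone or WT replicate: 0 without WT replicate 1, which leaves 1 WT library, 3 without C8, and 3 without WT replicate 2, where *Amn* (adjusted p = 0.0508) and *Ctsl* (log2 fold change 0.96) missed a threshold. It stayed at 5 with the replicate block. For ATRi in the *Cdk8* multiplex the count of 0 became 1 with the replicate block (*Apoe*), and for the difference between knockouts 1 with knockout libraries alone (*Lrp2*). The replicate block changed no other call of a member. The interaction could not be estimated without WT replicate 1. No called member changed direction. Over all genes, the 360 calls in *Ccnc* KO became 202 with the CPM filter, 171 with DMSO alone and 91 without WT replicate 1. The 197 in *Cdk8* KO became 321 with DESeq2, 345 without the filter, 4 with DMSO alone, 66 with the replicate block, and 1 to 455 on leaving out a replicate. For ATRi, 206 and 16 became 651 and 378 with DESeq2, 845 and 41 without the filter, 451 and 2107 with the replicate block, 41 in the *Ccnc* multiplex with all WT libraries, and as few as 21 and 0 without WT replicate 1. The interaction calls of 0 became 20 without the filter in the *Ccnc* multiplex and 4 with the block in the *Cdk8* multiplex. The 1 gene that differed between knockouts became 4 without the filter, 43 with knockout libraries alone and 11 without B9. The cause of these shifts was not tested. *Ttr* and *Afp* had too few counts to be tested, and *Rbp4* was at 23 to 69 counts per library.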
